A study of Mus musculus with 12 samples.

Results

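The small (40S) subunit of the cytosolic ribosome binds messenger RNA, scans it for the start codon and decodes it, and the genes described here encode its proteins. They were taken by name from both expression tables of a study of Eif1ad3 in mouse 2-cell embryos: symbols of the Rps series, with Rpsa, Fau and Rack1 added and with Rps6k kinases and symbols ending in -ps left out. This gave 35 genes in each table, out of 17866 genes listed in the knockdown table and 19390 in the immunoprecipitation table. Of the 35, 15 encode proteins of the head of the subunit, 17 encode proteins of its body and platform, and 3 (Rps4l, Rps27l and Rps27rt) are additional copies of a member. Rps3a1 has a symbol that the naming rule does not match and is not among them.

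Ribosomal proteins are made in near-equal numbers, since each mature 40S particle holds 1 copy of each. Their messenger RNAs are typically short and abundant and begin with a C followed by a run of pyrimidines, the terminal oligopyrimidine tract, through which the growth-regulating kinase mTOR and the protein Larp1 control their translation. The mouse oocyte stores ribosomes for the embryo, and ribosomal protein genes are among those transcribed when the embryo's own genome is switched on, which in the mouse happens mainly in the 2-cell embryo. Eif1ad3 belongs to a gene family named for a domain of initiation factor eIF1A, a protein that binds the 40S subunit.

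The libraries used fall into 4 groups of 2 (replicates A and B), all from 2-cell embryos, and for the knockdown the design text names CF1 mice as the source. Control embryos (labelled WT) received mRNA of RfxCas13d, an RNA-cutting enzyme, without a guide, and knockdown embryos (labelled Eif1ad3_KD) received that mRNA with a guide RNA against Eif1ad3 and its variants at the 1-cell stage. The samples' protocol describes these groups differently, as oocytes that received Cas13d protein together with morpholino oligos, either control ones or ones antisense to Eif1ad3. The immunoprecipitation (RIP-seq, sequencing of RNA recovered with a protein) used embryos labelled Eif1ad3_OE, which at the zygote stage had been injected with mRNA made in vitro at 200 ng/uL, encoding Eif1ad3 with a His tag. Each replicate used the lysate of 200 cells, bound to anti-His beads (His) or to beads carrying control IgG (IgG), and the design text also speaks of control embryos without saying which libraries they gave. The tagged protein came from injected mRNA, the number of embryos per knockdown library is not given, and no label says whether replicates came from separate collections, so p-values measure only the spread between these libraries.

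The starts of the genes are shown first because the tract at the start of the transcript is what the members are known to share. Of the 35 members, 26 had a RefSeq promoter window (build GRCm38.p6, 250 bases before to 50 after an annotated start). A tract was called where a C within 5 bases of the start was followed by at least 4 bases that were each C or T. It was found in 15 of the 26 members (57.7%) and in 21.2% of the 27025 genes with a window, where a gene with several annotated starts counted if any start matched. The windows printed run from 20 bases before to 20 bases from the start, 5′ to 3′ on the gene's strand, with the tract in capitals. Rps9, Rps6 and Fau were among the members with the most negative knockdown fold change, Rps15 had a fold change close to theirs and no tract, and Rps27l and Rack1 had positive ones.
Rps9 (chr7:3704021-3704060, plus strand): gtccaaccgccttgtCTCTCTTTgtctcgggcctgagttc
Rps6 (chr4:86857348-86857387, minus strand): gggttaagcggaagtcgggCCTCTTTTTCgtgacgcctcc
Fau (chr19:6057927-6057966, plus strand): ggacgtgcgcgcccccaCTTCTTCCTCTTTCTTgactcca
Rps15 (chr10:80292411-80292450, plus strand): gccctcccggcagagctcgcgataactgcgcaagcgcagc
Rps27l (chr9:66946066-66946105, plus strand): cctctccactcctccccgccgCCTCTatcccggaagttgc
Rack1 (chr11:48800340-48800379, plus strand): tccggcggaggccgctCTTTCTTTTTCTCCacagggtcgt
The run was 8 bases long in Rps9, 10 in Rps6, 16 in Fau, 5 in Rps27l and 14 in Rack1. For Rps27l this is 1 of 2 annotated starts, and the other had no tract. Among short motifs searched on both strands of the 300 bases, the ETS core CCGGAAG was in 38.5% of the 26 members against 9.93% of all genes, the YY1 core AAGATGG in 23.1% against 7.28%, the GC box GGGCGG in 13 of the 26 against 38.2%, and the TATA box TATAAA in 7.69% against 15.7%. A match describes these letters only, and the lack of a tract means only that none began within 5 bases of an annotated start.

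Depth ranged from 18173916 to 27902514 reads per library in the knockdown table and from 4678563 to 8364126 in the immunoprecipitation table, so that 3 reads, taken as the floor, correspond to 0.108 to 0.165 CPM (reads scaled to a common library total) and to 0.359 to 0.641 CPM. Reads were amplified by PCR without molecular identifiers, so such floors cover counting error only. Every member had reads in all 4 libraries of the knockdown experiment. Eif1ad3, the targeted gene, stood at 839 (replicate A) and 663 CPM (replicate B) in controls against 277 and 377 CPM in knockdown embryos, with a log2 fold change of -1.21 (standard error, SE, 0.33) and an adjusted p of 0.859 in limma. All 8 markers of the 2-cell stage were at 10 CPM or more in each of those 4 libraries, with sums of 3942 and 3917 CPM in controls and 2752 and 3272 CPM in knockdown embryos. In the separately normalized immunoprecipitation table, levels of the 8 markers summed to 143 and 164 CPM in His and to 1.52 and 133 CPM in IgG, with 5 of 8 at 0 in IgG replicate A. The 10 oocyte markers summed to 4868 and 4221 CPM in controls, 11230 CPM in knockdown replicate A and 4311 CPM in replicate B, and their part in the results was not tested. Of the markers of cumulus cells, sperm and later embryos, 5 of 12, 3 of 6 and 7 of 8 are listed in the knockdown table, and these summed to at most 15.1, 3.83 and 41.1 CPM in any of its libraries. In the immunoprecipitation the numbers listed are 10, 4 and 8, and they summed to at most 48.9, 54.3 and 739 CPM.

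Knockdown embryos were compared with controls to ask whether the small-subunit messenger RNAs differed when Eif1ad3 was reduced. As a group they were lower: 33 of the 35 had a lower mean in knockdown embryos, and the median member had a log2 fold change of -0.64, against 0.02 for all 13332 genes tested. They were taken on log2(CPM + 1), a scale on which changes of genes with low values come out too small. Both knockdown libraries lay below both controls for 24 of the 35 (68.6%), an order seen in 18.4% of all genes tested, and both lay above for 0 of the 35, against 18.1% of all genes. The remaining 11 overlapped. CPM is relative to the library, so fewer of these transcripts per embryo and more of other RNA cannot be told apart, and in such bulk samples neither can fewer cells of a type and less RNA per cell.

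No single member passed the test. In limma with Benjamini-Hochberg adjustment over all genes, 0 of the 35 had an adjusted p under 0.05, as did 0% of all genes, and the smallest adjusted p of a member was 0.859. An unadjusted p under 0.05 was reached by 8 of the 35, all lower, and by 726 of all 13332 genes. The count tests of edgeR and DESeq2 on recovered reads also called 0 members, with 7 at an unadjusted p under 0.05 in each, and over all genes edgeR called 0 and DESeq2 15 of 13332 (0.113%). The count depended on the knockdown replicates: limma called 15 members without knockdown replicate A (14 lower and Rps27l higher, with 15.1% of all genes called) and 6, all lower, without knockdown replicate B (3.23% of all genes), in fits that assume the lone knockdown library to vary like the controls, and 0 without either control.

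**Figure D1:**
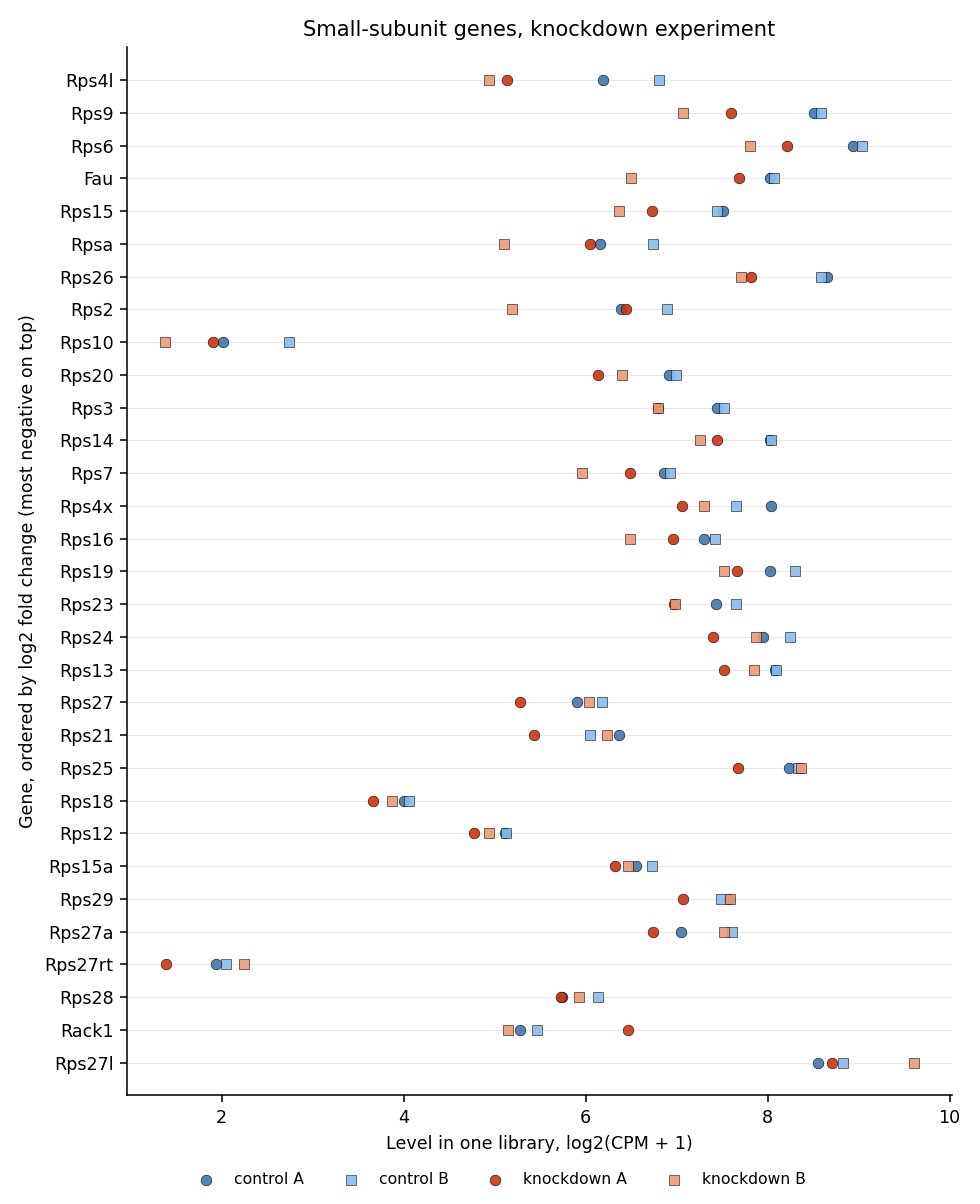
Level of 31 of the 35 small-subunit genes in each library of the knockdown experiment, as log2(CPM + 1) on the horizontal axis, with genes ordered by log2 fold change from -1.46 (Rps4l) at the top to 0.47 (Rps27l) at the bottom. Both knockdown libraries (red) lie left of both controls (blue) for 21 of the genes shown, and the libraries overlap for the other 10.

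The most negative fold change belonged to Rps4l, a copy of Rps4x. Replicates A and B stood at 72.0 and 111 CPM among controls, against 34.2 and 29.7 CPM among knockdown embryos, so both knockdown libraries were well below both controls. The fitted log2 fold change was -1.46 (SE 0.40, adjusted p in limma 0.859).

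Among the core proteins of the body, Rps9, which lies near the entry of the messenger RNA channel, had the most negative value. Rps9 was at 363 and 382 CPM in controls and at 193 and 133 CPM in knockdown embryos (log2 fold change -1.21, SE 0.34). The 2 groups were apart, and the mean of Rps9 in knockdown embryos was 43.9% of the control mean.

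Rps6, the subunit protein phosphorylated by the S6 kinases, was at 490.3 and 523 CPM in controls and at 296 and 222 CPM in knockdown embryos (-0.98, SE 0.32). Rps26, which lines the exit of the messenger RNA channel, was at 402 and 382 CPM in controls and at 224 and 208 CPM in knockdown embryos (-0.85, SE 0.31). Neither gene's groups overlapped.

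Fau encodes a ubiquitin-like protein fused to the ribosomal protein S30, and its knockdown replicates disagreed in size. It was at 259 and 269 CPM in controls, 204 CPM in knockdown replicate A and 89.7 CPM in replicate B (-0.96, SE 0.43). Rps27a, the other fusion gene, which encodes ubiquitin joined to a protein of the head, was at 132 and 193 CPM in controls and at 106 and 182 CPM in knockdown embryos (-0.20, SE 0.40). Fau was below both controls in both knockdown libraries, whereas Rps27a overlapped.

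In the head, Rps15, whose tail reaches the decoding centre, was at 181 and 173 CPM in controls and at 105 and 81.4 CPM in knockdown embryos (-0.93, SE 0.34). Rps3, at the entry side of the channel, was at 173 and 183 CPM in controls and at 110.2 and 109.99 CPM in knockdown embryos (-0.69, SE 0.325). Neither gene's groups overlapped, and the knockdown replicates of Rps3 lay next to each other.

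Rps19, mutated in Diamond-Blackfan anaemia, was at 260.3 and 315 CPM in controls and at 201 and 183 CPM in knockdown embryos (-0.58, SE 0.32). Rps23, a body protein that bears on decoding accuracy, was at 172 and 199.98 CPM in controls and at 125 and 125 CPM in knockdown embryos (-0.56, SE 0.33). Both were separated between groups. Rpsa, a body protein also known as the laminin receptor precursor, was at 70.5 and 106 CPM in controls and at 65.4 and 33.5 CPM in knockdown embryos (-0.87, SE 0.45), so that its replicate A was close to a control and its replicate B was not.

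Rps14, a platform protein, was at 260.3 and 261 CPM in controls and at 173 and 152 CPM in knockdown embryos (-0.68, SE 0.32). The smallest differences with no overlap were those of Rps18, Rps12 and Rps15a, with log2 fold changes of -0.26, -0.26 and -0.25. Rps12, a head protein, was at 33.5 and 33.98 CPM in controls and at 26.4 and 29.8 CPM in knockdown embryos (SE 0.40).

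Rps27l and Rack1 were the only members with a higher mean in knockdown embryos, and in each a single library made the difference. Rps27l is a paralog of Rps27 known as a target of p53. It was at 375 and 453 CPM in controls, 415 CPM in knockdown replicate A and 780.2 CPM in replicate B (log2 fold change 0.47, SE 0.38, adjusted p in limma 0.890). Its fold change was 0.01 without knockdown replicate B and 0.92 without replicate A, where it was called higher (adjusted p in limma 0.00576). Rack1, a scaffold protein on the head that docks signalling kinases, was at 37.9 and 43.3 CPM in controls, 87.1 CPM in knockdown replicate A and 34.4 CPM in replicate B (0.43, SE 0.50, adjusted p 0.924), and its fold change was -0.23 without replicate A.

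The knockdown replicates departed from the controls to a like extent at the median, and 24 members were below both controls in both of them. The median difference of the 35 from the control mean was -0.59 on the log2 scale in knockdown replicate A and -0.56 in replicate B, while all genes tested were at 0.14 and -0.17. In replicate A, 32 of the 35 were below both controls, the exceptions being Rps27l, Rack1 and Rps2. In replicate B, 26 were below both controls, and the 9 others included Rps21, Rps25, Rps27, Rps27a, Rps27l, Rps27rt, Rps28 and Rps29. Rps25, which some viral RNAs need to recruit the ribosome, was at 300 and 321 CPM in controls, 203 CPM in replicate A and 328 CPM in replicate B. Rps29, a small zinc-binding protein of the head, was at 190.1 and 178 CPM in controls, 133 CPM in replicate A and 191 CPM in replicate B. The median fold between replicates was 1.34 in knockdown embryos, with 4 members over 2-fold, and 1.10 in controls, with 0 over 2-fold.

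By place in the subunit, 14 of the 17 body genes and 9 of the 15 head genes had both knockdown libraries below both controls, beside 18.4% of all genes tested. The median log2 fold change was -0.68 for body genes, with a range of -1.21 to -0.25, and -0.47 for head genes, with a range of -0.93 to 0.43. The difference between the places was not tested. Head genes that overlapped included Rps25, Rps27a, Rps28, Rps29 and Rack1, and body genes that overlapped were Rps2, Rps21 and Rps27.

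**Figure D2:**
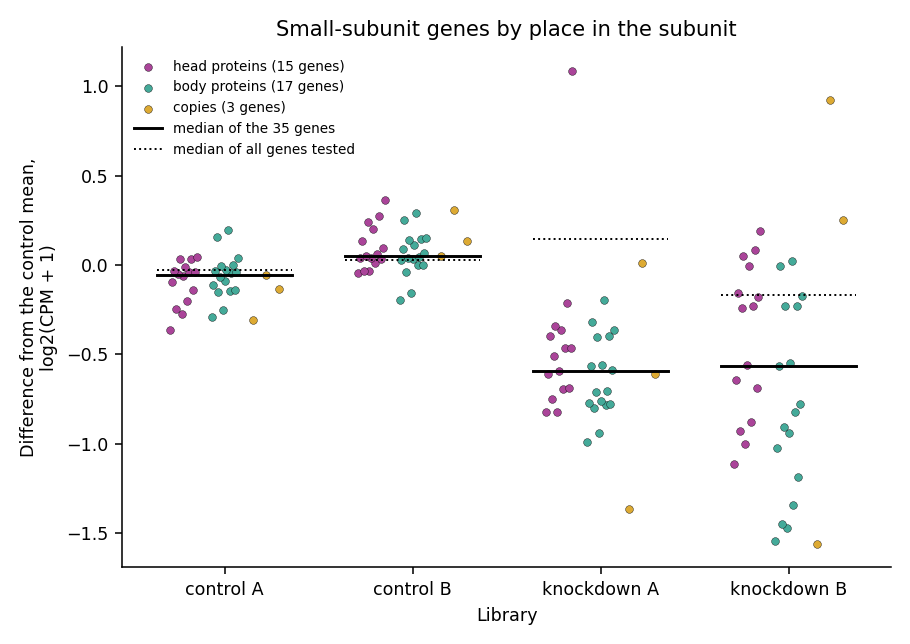
Difference of each small-subunit gene from its mean in the controls, in log2(CPM + 1), for the 4 libraries of the knockdown experiment, with genes coloured by place in the subunit. The median of the 35 (solid line) is at -0.59 and -0.56 in the knockdown libraries, and the median of all genes tested (dotted line) is at 0.14 and -0.17.

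The copies differed among themselves. Rps4x, the X-linked core gene, was at 261 and 199.5 CPM in controls and at 132 and 156 CPM in knockdown embryos (-0.66, SE 0.34), the same direction as its copy Rps4l. Rps27 was at 58.8 and 71.6 CPM in controls and at 37.8 and 64.6 CPM in knockdown embryos (-0.38, SE 0.41), with overlap. Its retrogene copy Rps27rt was at 2.84 and 3.13 CPM in controls and at 1.61 and 3.74 CPM in knockdown embryos (-0.18, SE 0.58). Rps27 and Rps27rt have closely similar starts, which are shown because near-identical copies can share reads. The 2 windows share a run of 38 identical bases beginning at base 2 after the start of Rps27 and base 1 of Rps27rt, and the first 28 of those are printed in capitals after the 10 bases before them.
Rps27 (GRCm38.p6 chr3:90213620-90213657, minus strand): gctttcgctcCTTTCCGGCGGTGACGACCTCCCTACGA
Rps27rt (GRCm38.p6 chr9:114982712-114982749, minus strand): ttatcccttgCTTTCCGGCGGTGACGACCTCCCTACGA
How reads that fit both places were counted is not given in the sources used here.

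Rows named as pseudogenes of a member carried reads too. There were 50 such rows for 18 of the 35 members in the knockdown table. In controls, rows named as pseudogenes of Rps10, Rps18 and Rps2 held more CPM than the gene, at 80.5%, 65.3% and 53.6% of the sum of both, and those of Rpsa held 49.4%. For 10 of the 18 the share was under 4%. Rps10, a head protein, was at 3.04 and 5.66 CPM in controls while its pseudogene rows summed to 14.4 and 21.5 CPM. Rps18, another head protein, was at 14.996 and 15.7 CPM with 29.6 and 28.1 CPM on its pseudogene rows. How reads were divided between a gene and its near-identical copies is not known, so the level of these genes is uncertain.

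Adding pseudogene rows to their gene left the direction of all 18 as it was. The median fold change of the 18 was -0.70 for the gene alone and -0.76 for the sum, and in the sum 17 of the 18 had both knockdown libraries below both controls, the exception being Rps27a, beside 18.4% of all genes tested one by one. For Rps2, a body protein at the entry of the channel, the sum moved the fold change from -0.82 to -1.26 and removed the overlap: the gene was at 82.8 and 118 CPM in controls and at 86.3 and 35.5 CPM in knockdown embryos, and its pseudogene rows at 109 and 123 CPM and at 51.0 and 22.5 CPM. For Rps18 the sum moved it from -0.26 to -0.63. These sums were described and not tested.

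**Figure D3:**
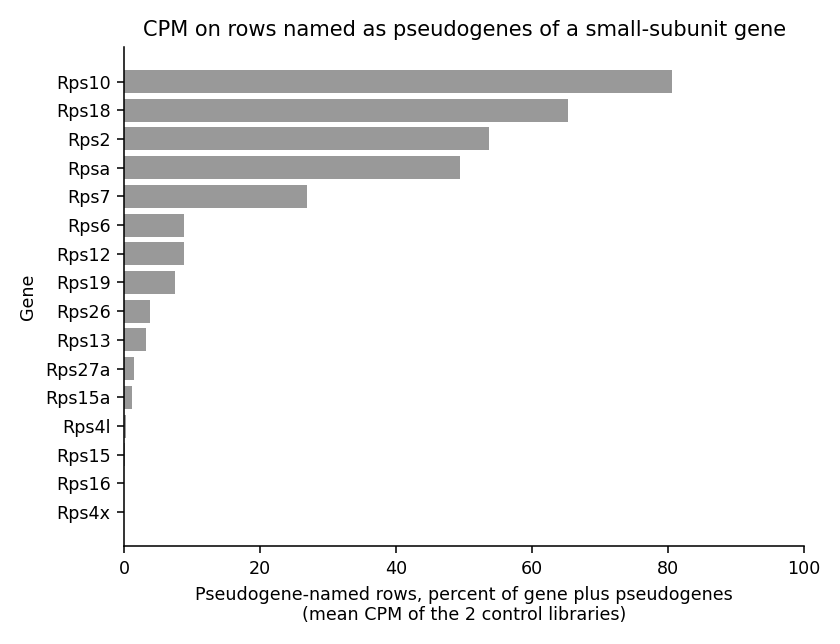
Share of CPM on rows named as pseudogenes, as a percent of the gene and its pseudogene rows together, for 16 of the 18 small-subunit genes that have such rows (mean CPM of the 2 control libraries). Rps10, Rps18 and Rps2 lie at 80.5%, 65.3% and 53.6%, Rpsa is at 49.4%, and 8 of the genes shown are under 4%.

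In controls the 35 genes took 0.643% and 0.701% of the library in replicates A and B, and in knockdown embryos 0.444% and 0.477%. Without Rps27l the shares were 0.605% and 0.656% against 0.402% and 0.399%, so that the knockdown replicates were closer to each other once that gene was set aside. Rps27l made up 5.83% and 6.46% of small-subunit CPM in controls and 9.36% and 16.4% in knockdown embryos. The 55 large-subunit genes took 1.61% and 1.53% of the library in controls and 1.08% and 0.758% in knockdown embryos.

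**Figure D4:**
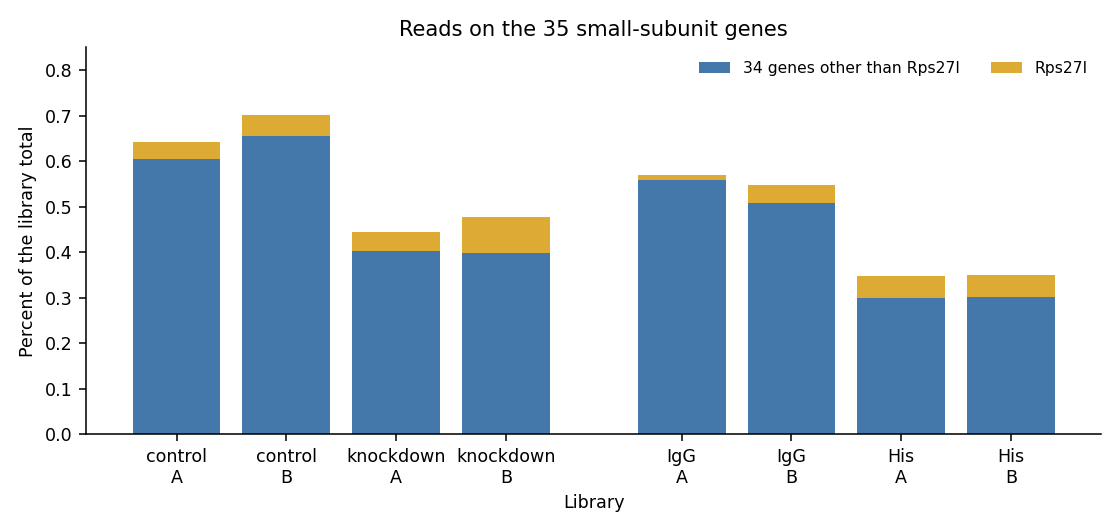
Percent of each library's total on the 35 small-subunit genes, with Rps27l stacked on the other 34. In the knockdown experiment the bars reach 0.643% and 0.701% in controls and 0.444% and 0.477% in knockdown embryos, and in the separately normalized immunoprecipitation 0.570% and 0.547% in IgG and 0.347% and 0.350% in His.

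Other genes of the pathway were read from lists set beside the members. Of 54 large-subunit genes tested, 45 had a lower mean in knockdown embryos and 34 had both knockdown libraries below both controls, with a median log2 fold change of -0.58. Of 58 factors that assemble the 40S subunit, such as the pre-40S factors Bysl, Nob1 and Ltv1, 43 had a lower mean and 26 were below in both libraries, with a median of -0.28. Of 29 initiation factors that bind the 40S subunit, 13 had a lower and 16 a higher mean (median 0.04). Of 10 regulators tested, among them Larp1 and Mtor, 5 were lower and 5 higher (median -0.06). In limma 0 genes of any of these lists passed the adjusted threshold, and 12, 2, 2 and 0 of them, in the order given, had an unadjusted p under 0.05. Of the 8 markers of the 2-cell stage, 7 had a lower and 1 a higher mean, and 5 were below in both libraries (median -0.37). Over all genes tested, 18.4% had both knockdown libraries below both controls. Differences between the lists were not tested.

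The immunoprecipitation addressed which RNAs were recovered with His-tagged Eif1ad3 above the IgG background. The small-subunit genes as a group were not higher in His: the median member had a log2 fold change of -0.35, while the median of all 11232 genes tested was 2.01. That median is tied to the filter: 7456 of the 11232 genes (66.4%) reached 1 CPM in both His libraries but not in both IgG libraries, and genes that enter the test in this way tend to be higher in His. It was 1.24 without a filter, 0.82 without either His replicate, and -0.08, with 0 genes called, under quantile normalization. Of the 35 members, 31 reached 1 CPM in all 4 libraries, Rack1, Rps23 and Rps4l did so in both His libraries but only 1 IgG library, and Rps27rt in both IgG libraries alone. A lower mean log2 level in His was found for 23 of the 35 and a higher one for 12, and these counts were 29 and 6 with DESeq2 and with edgeR, and 26 and 9 with median rescaling. Both His libraries lay below both IgG libraries for 15 members, an order seen in 9.06% of all genes, and above for 4 (Rps6, Rps27l, Rps4x and Rps23), an order seen in 54.1% of all genes. In limma 1 member, Rps23, passed at an adjusted p under 0.05, against 36.6% of all genes. No member was called lower, against 0.917% of all genes, and the share of all genes called higher was 35.7%. The share of all genes is given as background and carries the same tie to the filter. The number of genes with 0 reads was 12574 and 12217 in IgG and 5146 and 5313 in His. The 10 oocyte markers summed to 11656 and 11591 CPM in IgG and to 21278 and 21640 CPM in His, with 8 of the 10 above in both His libraries. The 6 sperm markers, of which 4 are listed, summed to 47.4 and 54.3 CPM in IgG and to 1.08 and 7.20 CPM in His, with Prm1, Odf1 and Akap4 at 0 in all 4 libraries. The 8 later-embryo markers summed to 739 and 38.7 CPM in IgG and to 229 and 275 CPM in His. In IgG replicate A 7 of the 8 were at 0, so that 1 gene held the sum. Of the 4 later-embryo markers tested, 3 were above in both His libraries and 1 overlapped. The part of these and of the 2-cell markers in the result was not tested.

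The members spread more within IgG than within His, and so did all genes tested. The median standard deviation between replicates, on the log2 scale, was 0.998 in IgG and 0.143 in His for the members. For all genes it was 0.688 and 0.350. Between the His replicates the median fold was 1.16, and 1 of the 35, Rps27rt, differed over 2-fold. Between the IgG replicates the median fold was 2.42, 18 of the 32 members with reads in both differed over 2-fold and 13 over 3-fold, and Rack1, Rps23 and Rps4l had reads in 1 IgG library only. Leaving out a library moved the count of called members accordingly: of 34 tested, 19 passed without IgG replicate A (4 higher and 15 lower, with 69.1% of all genes called) and 19 without IgG replicate B (7 higher and 12 lower, with 70.0% of all genes called), in fits that assume the lone IgG library to vary like His. Without either His replicate 0 of 35 passed, as did 6 of 6750 genes (without replicate A) and 6 of 6754 (without replicate B).

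**Figure D5:**
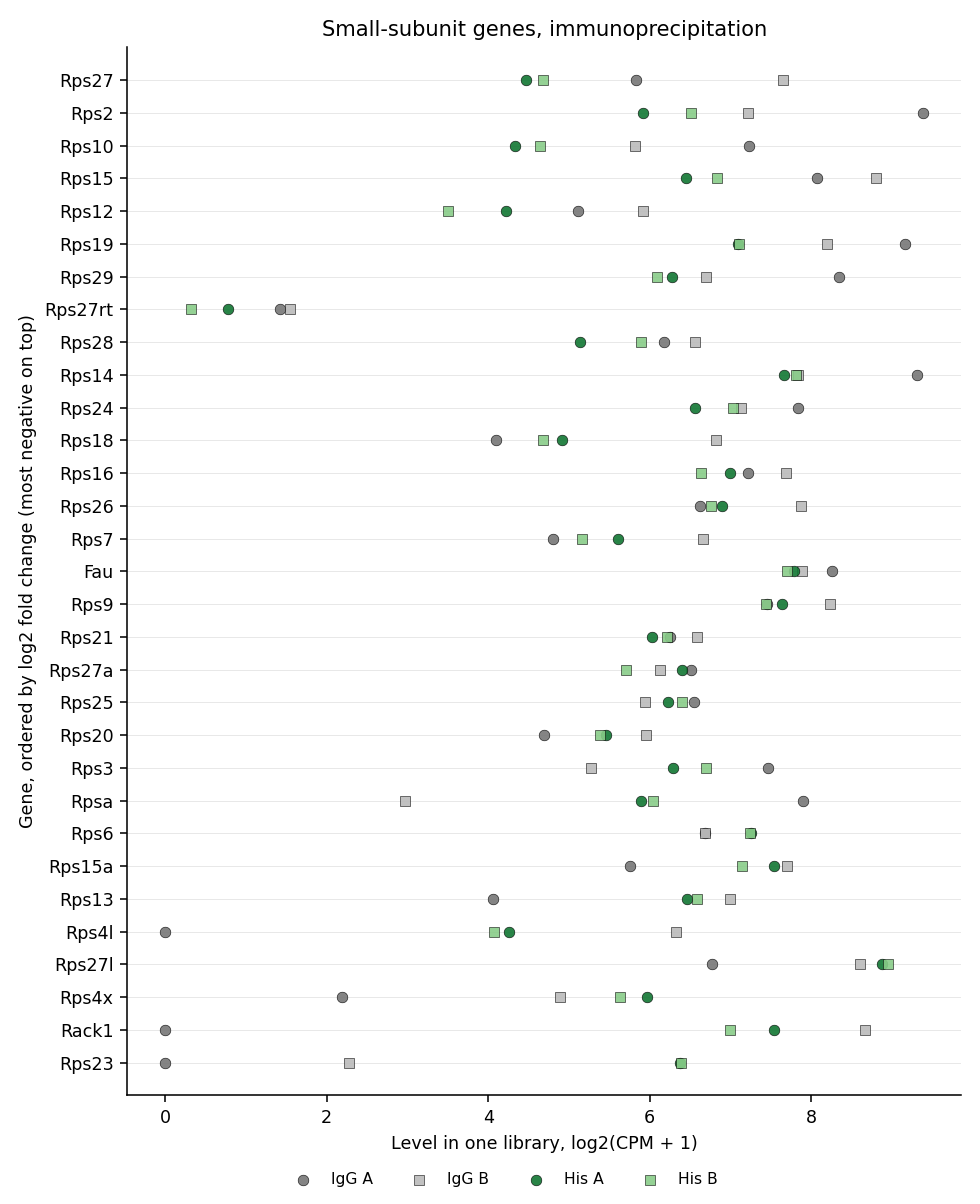
Level of 31 of the 35 small-subunit genes in the 2 IgG and 2 His libraries, as log2(CPM + 1) on the horizontal axis, ordered by log2 fold change from -2.17 (Rps27) at the top to 5.25 (Rps23) at the bottom. The His libraries (green) sit close together for most genes, while the IgG libraries (grey) lie far apart for many, such as Rack1 and Rpsa.

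Rps23 was the 1 member called, with a higher level in His. The His libraries held 82.3 and 82.9 CPM (688 and 656 reads), whereas IgG replicate A held 0 and replicate B 3.85 CPM (18 reads), so the groups were far apart. On the log2 scale the fitted difference was 5.25 (SE 1.105, adjusted p in limma 0.0393). Rps23 reached the filter's 1 CPM in both His libraries but in only 1 IgG library, and without the filter the adjusted p was 0.05998. The call was lost in 8 of the 13 alternatives. Over all 13 the fold change stayed positive, from 3.72 to 7.04, and the adjusted p ran from 0.000138 to 1.0.

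Rps4x was at 61.6 and 48.4 CPM in His and at 3.54 and 28.6 CPM in IgG (log2 fold change 2.26, SE 1.32, adjusted p 0.316). Rps27l was at 470.0 and 494 CPM in His and at 109 and 388 CPM in IgG (1.23, SE 0.77, adjusted p 0.348). Rps6 was at 152 and 151 CPM in His and at 102 and 102 CPM in IgG (0.57, SE 0.58, adjusted p 0.576). In all 3 the His libraries were above both IgG libraries without passing the test. With a replicate left out the fold change ran from 0.91 to 3.61 for Rps4x, 0.31 to 2.14 for Rps27l and 0.56 to 0.57 for Rps6.

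The most negative fold change was that of Rps27, a zinc-binding body protein, at 21.2 and 24.5 CPM in His and 55.7 and 200 CPM in IgG (-2.17, SE 1.07, adjusted p 0.239). Rps2 was at 59.5 and 90.3 CPM in His and at 668 and 148 CPM in IgG (-2.08, SE 1.01, adjusted p 0.231). Rps10 was at 19.1 and 23.9 CPM in His and at 148 and 55.1 CPM in IgG (-2.03, SE 0.98, adjusted p 0.232). All 3 were lower in both His libraries, with IgG replicates that differed by over 2-fold. With a replicate left out the fold change ran from -3.08 to -1.25 for Rps27, -3.17 to -1.0 for Rps2 and -2.74 to -1.33 for Rps10. Rows named as pseudogenes held 15.5% of the IgG sum of both for Rps2 and 20.8% for Rps10. Adding them moved Rps2 to -1.61 and Rps10 to -1.67, still lower in both His libraries.

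Rps15 had the smallest unadjusted p among the core members with negative values. It was at 86.7 and 113 CPM in His and at 268 and 443 CPM in IgG (-1.79, SE 0.56, adjusted p 0.0955). DESeq2 on recovered reads called 8 members, of which 7 were lower in His (among them Rps2, Rps10, Rps12, Rps15, Rps19 and Rps27) and 1 higher (Rps23), with 49.1% of all genes called, while edgeR called 0 members and 0 genes in all, with 1 member at an unadjusted p under 0.05.

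Some members show how far the IgG libraries differed. Rack1 had 0 reads in IgG replicate A but 405 CPM in replicate B, while His held 184 and 126 CPM (2.93, SE 3.43, adjusted p 0.626). Rpsa was at 237 CPM in IgG replicate A but 6.84 CPM in replicate B, while His held 58.5 and 64.5 CPM (0.53, SE 2.05, adjusted p 0.892). Rps4l had 0 reads in IgG replicate A but 79.1 CPM in replicate B, while His held 18.2 and 15.8 CPM (1.00, SE 2.52, adjusted p 0.829). In each of them the His libraries lay between the IgG libraries, so no direction can be read.

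Fau was at 219 and 206 CPM in His and at 305 and 236 CPM in IgG (-0.34, SE 0.41, adjusted p 0.643), and Rps27a was at 83.5 and 51.0 CPM in His and at 90.1 and 68.6 CPM in IgG (-0.26, SE 0.79, adjusted p 0.858). Rps27rt was near the floor, with 6 and 2 reads in His and 10 and 9 in IgG. Of the head genes, 7 of 15 had both His libraries below both IgG libraries and 0 had both above, and of the body genes 7 of 17 were below and 3 above, beside 9.06% below and 54.1% above over all genes. Their median fold changes were -0.63 and -0.31.

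The share of the library on the 35 genes was 0.347% and 0.350% in His and 0.570% and 0.547% in IgG. Among the lists set beside them, 10 of 52 large-subunit genes tested were called higher in His and 1 lower (median log2 fold change 0.39), 15 of 55 assembly factors were called higher and 1 lower (median 1.26), and 6 of 25 initiation factors that bind the 40S subunit were called higher and 0 lower (median 1.57). Of 10 regulators, 2 were called higher and 0 lower (median 1.93). These counts stand beside 35.7% called higher and 0.917% called lower over all genes, and the differences between lists were not tested.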

How the data were processed

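Per the labels' protocols, the authors amplified RNA of 2-cell embryos with Smart-seq2 chemistry, built Nextera XT libraries and read them in pairs of 150 bp. The submitters' processing notes name Trim Galore 0.6.7, FastQC, HISAT2 2.2.1, featureCounts 2.0.1, edgeR and the build GRCm39, and annotation, strand and multi-mapping settings are not given in the sources used here. The deposited values are CPM, scaled by the authors to each library's total, in 2 tables normalized separately. All values (100% within 0.01 of a read) were whole multiples of 1 read, so reads and totals were recovered.

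The main test was limma 3.58.1 in R 4.3.3 on log2(CPM + 1), for every gene that reached 1 CPM in 2 or more of the libraries compared (eBayes with a trend, two-sided, Benjamini-Hochberg over all genes tested, threshold 0.05), fitted on each whole table. All 35 members passed the filter in both. edgeR 4.0.16 and DESeq2 1.42.0 on recovered reads were alternatives, with other pseudocounts (0.1 and 5), filters, scalings, the replicate letter as a block and leaving out each replicate. The scripts were tested only on simulated data with the same spread in both groups, unlike the IgG and His libraries here. Of 12 labelled samples 8 were used: the names of 4 value columns do not decide between input and total RNA, so 2 of the 4 planned comparisons were not run. Replicate letters come from the titles. Genes were named by a rule on fold change, level, paralogy and fusion, and members and lists were chosen with earlier results of these data known. Transcript lengths were not used here, so levels are not compared between genes. Single values of 4 members are not reported here, but these members are in every fit and every count over the 35.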

Additional observations from a re-analysis of the deposited data

How the results depend on the processing

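In knockdown against control embryos the median of the 35 genes (-0.64) was negative in all 13 alternatives. It was -0.57 with a pseudocount of 5 and ran from -0.70 to -0.53 when a replicate was left out. The count of members called (0) ran from 0 to 15 when a replicate was left out and stayed at 0 in the other 9 alternatives. Of the 31 members given singly, 23 were negative and Rps27l was positive in every alternative that tested them (12 of 13 for Rps10), and the sign of the other 7 changed only when a replicate was left out: Rack1 ran from -0.23 to 1.09, Rps21 from -0.77 to 0.0248, Rps25 from -0.61 to 0.0831, Rps27a from -0.59 to 0.19, Rps27rt from -0.61 to 0.25, Rps28 from -0.31 to 0.0927 and Rps29 from -0.46 to 0.0493. The replicate letters are not stated to pair libraries. Deviations of same-letter libraries correlated at 0.146 in the knockdown table and -0.0138 in the immunoprecipitation, and with the replicate block 0 members were called in each comparison (beside 0.015% of all genes in the knockdown and 34.7% in the immunoprecipitation), with the medians at -0.64 and -0.35 and smallest adjusted p of 0.382 and 0.0736.

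In His against IgG the 1 member called by limma became 8 with DESeq2 (49.1% of all genes called), 0 with edgeR, with a mean of at least 5 CPM, without a filter, with a pseudocount of 0.1, with quantile normalization and with the replicate block (1, 3, 4, 5, 5 and 1 at an unadjusted p under 0.05, and 0%, 27%, 20.8%, 38.0%, 0% and 34.7% of all genes called, in that order), and 0 to 19 when a replicate was left out. The median (-0.35) was -0.89 with DESeq2, -0.66 with edgeR and -0.64 with median rescaling, where the median of all genes (2.01) was 1.30, 1.56 and 1.77, and with quantile normalization these were -0.35 and -0.08. Signs reversed with DESeq2 and edgeR for Rack1 (-0.48 and -0.28), Rps20 (-0.28 and -0.0435), Rps25 (-0.34 and -0.0777), Rps3 (-0.72 and -0.44), Rps4l (-1.32 and -1.12) and Rpsa (-1.52 and -1.22), with median rescaling for Rps20 (-0.20), Rps25 (-0.23) and Rps3 (-0.18), and with quantile normalization for Fau (0.19), Rps20 (-0.92), Rps4l (-1.49) and Rps9 (0.0982). When a replicate was left out the median ran from -0.52 to -0.35, and the sign of 13 of those 31 members reversed: Rack1 ran from -1.40 to 7.26, Rps13 from -0.46 to 2.46, Rps15a from -0.36 to 1.58, Rps18 from -2.03 to 0.70, Rps20 from -0.53 to 0.73, Rps25 from -0.24 to 0.38, Rps26 from -1.04 to 0.21, Rps27a from -0.61 to 0.0846, Rps3 from -0.97 to 1.22, Rps4l from -2.16 to 4.17, Rps7 from -1.28 to 0.59, Rps9 from -0.70 to 0.0781 and Rpsa from -1.93 to 2.99. In all, 17 of the 31 kept 1 sign in the alternatives that tested them (10 of 13 for Rps27rt), Rps6, Rps27l, Rps4x and Rps23 positive and 13 negative. For these reversals the cause was not tested. Both other planned comparisons, His against input and input against total RNA, were not run. Depth limits Rps27rt, at 2 to 10 reads per library of the immunoprecipitation.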
